A study of Mus musculus with 6 samples.

Results

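The 35 genes described here are those of glucose uptake, glycolysis, lactate production and export, and the pyruvate dehydrogenase complex with its kinases. They were listed by symbol, as isozymes and carriers of each step, with no threshold on their values, though earlier results of these data were known when the list was made. All 35 were among the 22332 gene symbols of the deposited table, and all 35 were among the 15084 genes kept for testing after a filter on low counts. The RNA came from the mouse embryonic stem cell line CGR8, kept in 10% fetal bovine serum with LIF and collected 48 hours after transfection with an siRNA pool. The siRSL24D1 group (3 libraries) received a pool against Rsl24d1, a factor of large ribosomal subunit assembly, and the siCtrl group (3 libraries) received a non-targeting pool. Cell line, serum, LIF and time were the same in both groups, so each comparison is of siRNA pools in 1 cell line, at 1 time, with a partial loss of the target's mRNA.

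Glycolysis splits glucose into pyruvate in the cytosol, with a small yield of ATP and NADH. Lactate dehydrogenase turns pyruvate into lactate and restores NAD+, monocarboxylate carriers export the lactate with a proton, and pyruvate dehydrogenase kinases hold back the oxidation of pyruvate by switching off its dehydrogenase in the mitochondrial matrix. Most steps have several isozymes from separate genes, known for different tissues and for different control by oxygen, and mouse embryonic stem cells in serum and LIF are known for a high glycolytic flux. The transcription factors HIF1A and MYC are known to drive many of these genes.

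The libraries held 30943635 to 35214000 estimated counts each, with 17710 to 18201 symbols above 0. Rsl24d1 itself had 53.8, 55.6 and 52.1 CPM in the siRSL24D1 libraries, against 99.4, 103 and 97.9 CPM in the siCtrl libraries, a fall to 0.538 of the siCtrl level (log2 fold change -0.89 ± 0.044 SE, edgeR adjusted p = 2.0e-05). The 10 embryonic stem cell markers were all detected (6 fell and 1 rose), and their summed level was 2615 to 2746 CPM with siRSL24D1 and 3041 to 3428 CPM with siCtrl. Dppa5a (792 to 861 CPM with siRSL24D1, 1036 to 1246 CPM with siCtrl) and Tdgf1 (430 to 440 CPM and 638 to 684 CPM) lowered the sum most. Pou5f1 overlapped (459 to 514 CPM and 438 to 505 CPM), and Zfp42 lay higher with siRSL24D1 (421 to 436 CPM and 339 to 380 CPM). In both groups, the sums of markers of other cell types were below that of the stem cell markers. The 8 fibroblast markers (2 of 7 tested fell and 1 rose) summed to 123 to 147 CPM with siRSL24D1 and 126 to 159 CPM with siCtrl. The 6 primitive endoderm markers (2 of 5 tested fell and 2 rose) summed to 34.7 to 38.7 CPM with siRSL24D1 and 38.2 to 41.4 CPM with siCtrl, and the 6 trophoblast markers (3 of 5 tested rose) to 64.2 to 66.8 CPM with siRSL24D1 and 50.4 to 53.1 CPM with siCtrl. Ribosomal protein genes took 8.11 to 8.55% of counts with siRSL24D1 and 8.95 to 9.91% with siCtrl, and mitochondrially encoded genes took 2.15 to 2.25% with siRSL24D1 and 2.02 to 2.14% with siCtrl. The part of these shifts in the results on glycolysis was not tested. CPM is the count scaled by TMM to a common library total. TPM is the count divided by transcript length and scaled to a common total in each library, without TMM.

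Nearly the whole pathway was lower after Rsl24d1 knockdown. Of the 35 genes, 29 fell and 3 rose at an adjusted p under 0.05 in edgeR's quasi-likelihood F test, with Benjamini-Hochberg adjustment over all 15084 genes (called the edgeR adjusted p from here on). Over all genes tested, 20% fell and 21.2% rose. The genes that rose were Pfkfb4, Bpgm and Pdhx, of which only Bpgm passed when siCtrl library 1 or siRSL24D1 library 3 was left out, and those that did not pass the test were Pfkfb2, Eno2 and Pdhb. The median log2 fold change was -0.53 over the 35 genes and 0.02 over all genes tested. In each of the 29 genes that fell, all 3 siRSL24D1 libraries lay below all 3 siCtrl libraries, which was the case for 26.2% of all genes tested. The opposite order was seen in 4 of the 35 genes (Pfkfb2, Pfkfb4, Bpgm and Pdhx) and in 26.8% of all genes tested. A fall of at least 2-fold was seen in 4 of the 35 genes, Aldoc, Slc16a3, Pgk1 and Slc2a3, and in 1.86% of all genes tested.

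**Figure D1:**
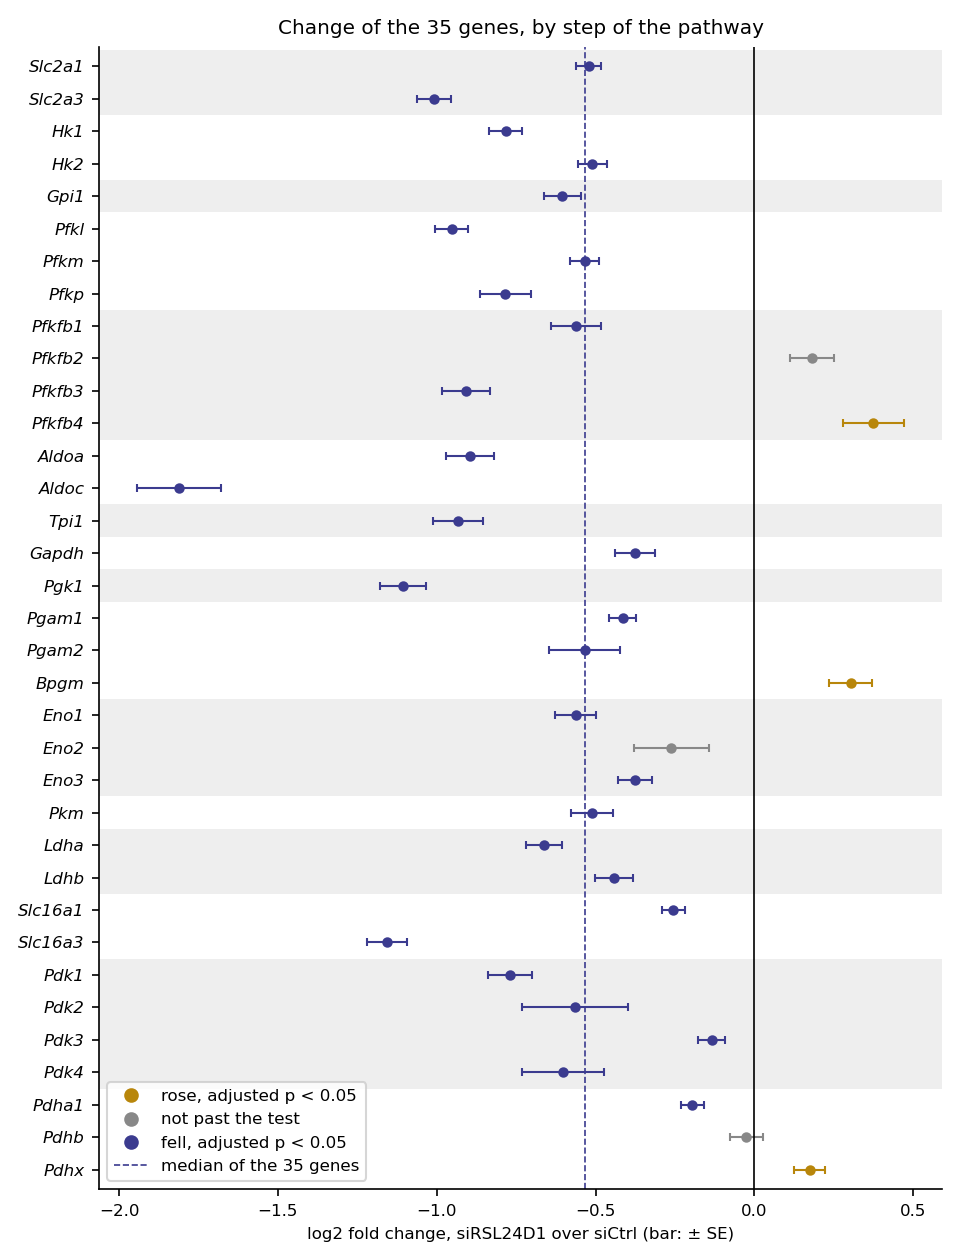
log2 fold change (siRSL24D1 over siCtrl, n = 3 each) with its standard error for each of the 35 genes, from glucose uptake at the top to pyruvate dehydrogenase at the bottom, with shading that separates the steps. Dark blue marks the 29 genes that fell, gold the 3 that rose and grey the 3 that did not pass the test; Aldoc lies farthest to the left at -1.81, and the dashed line is the median of -0.53.

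Together the 35 genes took 1.37, 1.32 and 1.23% of all estimated counts in the siRSL24D1 libraries, against 2.09, 2.04 and 1.91% in the siCtrl libraries. The 18 enzymes from hexokinase to pyruvate kinase accounted for most of this, with 0.964 ± 0.054% with siRSL24D1 and 1.46 ± 0.086% with siCtrl (SD, n = 3 each). The groups did not overlap in either sum. In bulk RNA, fewer cells of a type and less RNA per cell cannot be told apart, and all levels are relative to the rest of the library. The abundant genes fell almost without exception: of the 20 with a siCtrl mean of at least 100 CPM, 19 fell and only Pdhb did not pass, with a median log2 fold change of -0.58. Of all 2154 genes tested at that level, 26.6% fell, with a median of -0.01. Of the 15 below 100 CPM, 10 fell, with a median of -0.53, and of all genes tested below 100 CPM, 18.9% fell.

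**Figure D2:**
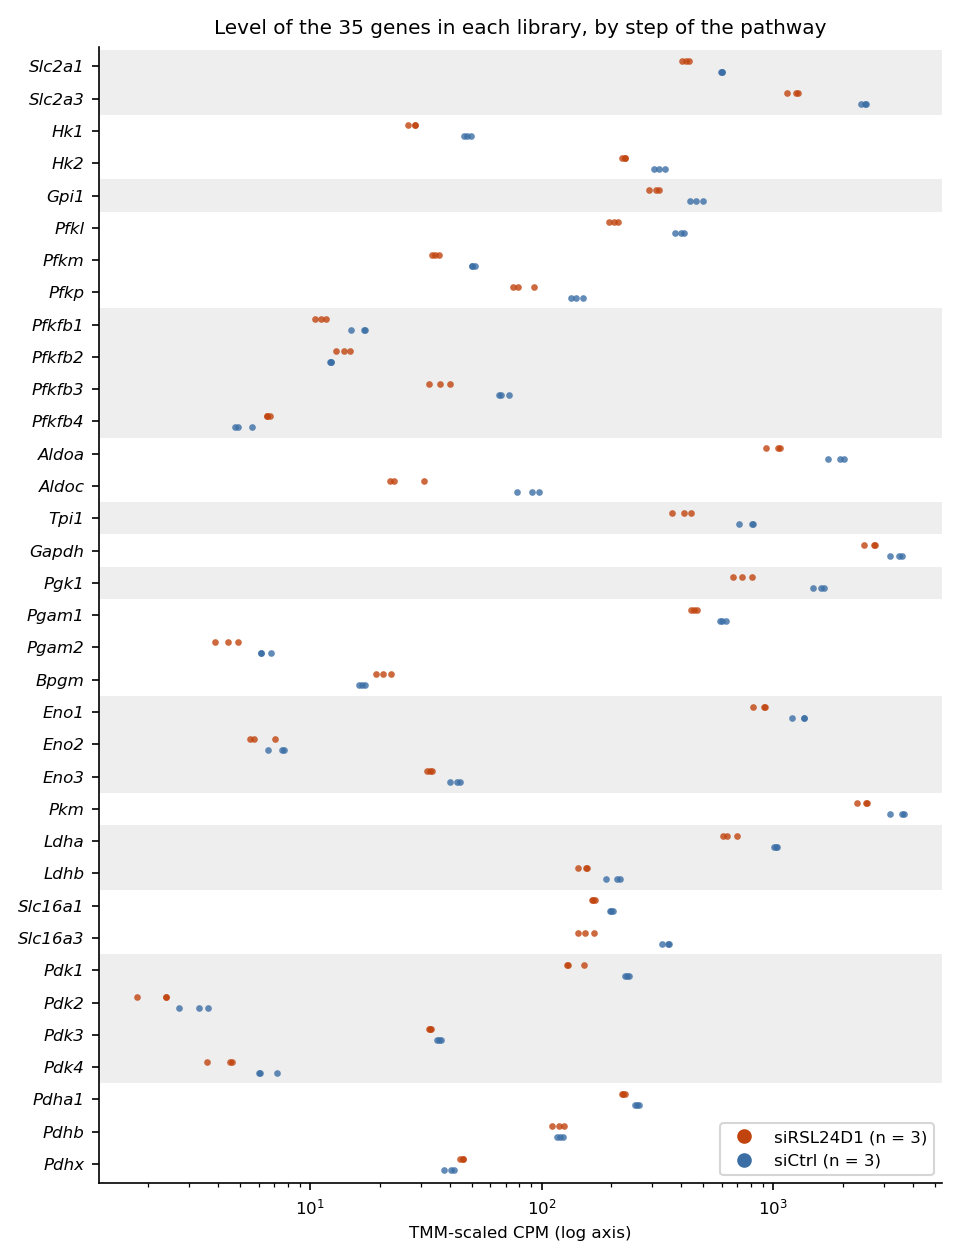
TMM-scaled CPM on a log axis for each of the 35 genes, with 3 points for siRSL24D1 (red, upper) and 3 for siCtrl (blue, lower) in each row and shading that separates the steps. Single values span from 1.80 CPM for Pdk2 in an siRSL24D1 library to 3663 CPM for Pkm in an siCtrl library, and the red points lie left of the blue ones in 29 of the 35 rows.

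The largest falls among genes with an entry in the promoter table were those of Aldoc, Slc16a3 and Pgk1, and their promoter windows are shown because hypoxia-inducible factors, known regulators of this pathway, bind the core letters ACGTG or GCGTG. Each window runs from 250 bases before to 50 bases after the RefSeq start site (GRCm38.p6), here on the plus strand in all 3: chr11:78322823-78323122 for Aldoc, chr11:120948817-120949116 for Slc16a3 and chrX:106186850-106187149 for Pgk1. The Aldoc start lies 105 bases from the GENCODE start of the gene, and Aldoc has another window in the table. Capitals mark ACGTG or GCGTG read on either strand, so that CACGT and CACGC are the same motifs on the other strand.
Aldoc: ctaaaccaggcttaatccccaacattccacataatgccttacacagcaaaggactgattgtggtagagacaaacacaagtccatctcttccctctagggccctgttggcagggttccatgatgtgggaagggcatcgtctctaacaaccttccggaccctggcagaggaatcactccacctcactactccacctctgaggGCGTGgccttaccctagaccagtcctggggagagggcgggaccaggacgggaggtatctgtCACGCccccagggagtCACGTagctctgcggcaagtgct
Slc16a3: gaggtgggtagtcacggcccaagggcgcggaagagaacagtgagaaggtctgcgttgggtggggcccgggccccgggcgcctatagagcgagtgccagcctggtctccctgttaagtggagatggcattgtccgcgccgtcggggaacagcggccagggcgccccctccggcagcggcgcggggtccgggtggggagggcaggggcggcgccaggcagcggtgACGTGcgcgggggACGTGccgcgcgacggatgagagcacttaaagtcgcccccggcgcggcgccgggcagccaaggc
Pgk1: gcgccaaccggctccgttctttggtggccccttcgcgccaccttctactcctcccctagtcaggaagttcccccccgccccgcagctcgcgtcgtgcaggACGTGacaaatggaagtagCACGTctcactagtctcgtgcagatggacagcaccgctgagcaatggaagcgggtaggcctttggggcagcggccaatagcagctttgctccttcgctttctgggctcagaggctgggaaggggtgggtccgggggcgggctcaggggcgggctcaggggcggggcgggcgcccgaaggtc

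All 3 windows hold at least 2 copies of these motifs. Of the 35 genes, 34 matched the table, with 53 windows in all, and Slc2a3 did not match. On either strand, ACGTG was found in 22 of the 53 windows (41.5%) and in 19.6% of all 32851 windows of the same length, and GCGTG in 29 (54.7%) and in 32.4% of all. One or the other was found in 39 windows (73.6%), against 43.8% of all. The E-box CACGTG, which contains ACGTG and is known to be bound by MYC, was found in 6 windows (11.3%), against 7.15% of all. By gene, 25 of the 28 that fell, 2 of the 3 that rose and 2 of the 3 that did not pass the test held ACGTG or GCGTG in some window, against 46.7% of all 27025 genes. The genes and windows behind these shares were not limited to genes tested here, and no set matched for level or base content was taken. A gene with more windows has more chances of a match. Some windows of 1 gene overlap, as for Eno1 and Aldoa, so that 1 site can count more than once. The shares are therefore a description only. These matches are letters in a window and were not tested as binding sites. The mRNA of Hif1a itself rose, with 172, 178 and 181 CPM in the siRSL24D1 libraries, against 150.2, 152 and 150.1 CPM in the siCtrl libraries (log2 fold change 0.23 ± 0.038 SE, edgeR adjusted p = 0.00195). That of Myc rose too, with 22.6, 24.7 and 25.9 CPM in the siRSL24D1 libraries, against 16.6, 16 and 18.1 CPM in the siCtrl libraries (log2 fold change 0.53 ± 0.072 SE, edgeR adjusted p = 8.2e-04). Neither protein was measured in these libraries.

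Glucose enters through facilitative transporters, of which Slc2a3 (GLUT3, a high-affinity carrier) and Slc2a1 (GLUT1) were both abundant. Slc2a3 (chr6:122727809-122801640, minus strand, GRCm38, GENCODE M21) had 1279, 1253 and 1146 CPM in the siRSL24D1 libraries, against 2508, 2499 and 2388 CPM in the siCtrl libraries. Its level with siRSL24D1 was 0.497 of that with siCtrl (log2 fold change -1.01 ± 0.053 SE, edgeR adjusted p = 2.1e-05), and the groups lay far apart. Slc2a1 had 404 to 431 CPM with siRSL24D1, against 595 to 604 CPM with siCtrl, a smaller fall (log2 fold change -0.52 ± 0.040 SE, edgeR adjusted p = 6.3e-05). Per transcript length, Slc2a3 made up 70.7 ± 0.74% with siRSL24D1 and 77.2 ± 0.56% with siCtrl (SD, n = 3 each) of the summed TPM of the pair. It stayed the more abundant carrier in every library.

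Hexokinases trap glucose as its phosphate, and both measured forms fell. Hk1, the form of most adult tissues, had 28.5, 28.3 and 26.4 CPM in the siRSL24D1 libraries, against 49.5, 46.0 and 47.8 CPM in the siCtrl libraries (log2 fold change -0.78 ± 0.052 SE, edgeR adjusted p = 4.2e-05). Hk2, the inducible form of muscle and tumours, had 222 to 229.7 CPM with siRSL24D1, against 307 to 339.6 CPM with siCtrl, with a log2 fold change of -0.51 ± 0.047 SE. Hk2 carried most of the step per length, at 85.1% with siRSL24D1 and 82.5% with siCtrl. Gpi1, the isomerase that makes the fructose phosphate of the next step, had 320.4, 311 and 291 CPM in the siRSL24D1 libraries, against 499, 466 and 437 CPM in the siCtrl libraries (log2 fold change -0.60 ± 0.059 SE, edgeR adjusted p = 1.8e-04). No siRSL24D1 library reached the lowest siCtrl library for any of these genes. A stretch of Gpi1 equal to 32.1% of its transcript, in runs of 31 bases, is shared with other genes, mostly a pseudogene, so that reads could have been split between copies.

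Phosphofructokinase commits the sugar to glycolysis, and all 3 of its isozymes fell. Pfkl, the liver-type subunit and the most abundant here, had 214, 206 and 196 CPM in the siRSL24D1 libraries, against 414, 401 and 377 CPM in the siCtrl libraries (log2 fold change -0.95 ± 0.051 SE, edgeR adjusted p = 2.2e-05). Pfkp, the platelet type, had 75.2 to 92.5 CPM with siRSL24D1, against 134 to 150.2 CPM with siCtrl (log2 fold change -0.78 ± 0.079 SE). Pfkm, the muscle type, had 33.5 to 36.1 CPM with siRSL24D1, against 49.8 to 51.4 CPM with siCtrl (log2 fold change -0.53 ± 0.047 SE). Pfkl was a smaller part of the step's TPM, at 63.3 ± 1.2% with siRSL24D1 and 67.3 ± 0.24% with siCtrl (SD, n = 3 each), and Pfkm a larger one, at 13.9 ± 1.1% with siRSL24D1 and 11.1 ± 0.49% with siCtrl (SD, n = 3 each). Exons of Pfkm overlap Senp1 and those of Pfkp overlap Pitrm1 on the opposite strand. The strand setting of the counting is not given in the sources used here, so reads from these overlaps cannot be assigned with certainty.

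The 4 PFKFB enzymes make and break the fructose bisphosphate that activates phosphofructokinase, and they did not move as 1 group. Pfkfb3, the form with the strongest kinase activity, had 40.0, 32.7 and 36.5 CPM in the siRSL24D1 libraries, against 66.8, 65.7 and 72.4 CPM in the siCtrl libraries (log2 fold change -0.91 ± 0.076 SE, edgeR adjusted p = 9.7e-05). Pfkfb1, the liver form, also fell, with 10.5 to 11.8 CPM with siRSL24D1, against 15 to 17.2 CPM with siCtrl (log2 fold change -0.56 ± 0.079 SE). Both were lower in every siRSL24D1 library than in any siCtrl library. Pfkfb4, known from testis and from hypoxic cells, rose: it had 6.53, 6.50 and 6.68 CPM in the siRSL24D1 libraries, against 4.72, 5.62 and 4.87 CPM in the siCtrl libraries (log2 fold change 0.37 ± 0.096 SE, edgeR adjusted p = 0.0152). Pfkfb2, the heart form, had 14, 12.9 and 14.8 CPM in the siRSL24D1 libraries, against 12.3, 12.2 and 12.3 CPM in the siCtrl libraries. Its siRSL24D1 libraries all lay above its siCtrl libraries, but it did not pass the test (log2 fold change 0.18 ± 0.070 SE, edgeR adjusted p = 0.0682). The Pfkfb4 call was lost without siCtrl library 1 (edgeR adjusted p = 0.0616) and without siRSL24D1 library 3 (0.0506). Pfkfb3 made up 40.7 ± 1.8% with siRSL24D1 and 51.9 ± 0.91% with siCtrl (SD, n = 3 each) of the step's TPM, while Pfkfb2 made up 16.3% with siRSL24D1 and 9.78% with siCtrl and Pfkfb4 9.78% with siRSL24D1 and 5.14% with siCtrl. Pfkfb2 shares 26.8% of its transcript with other genes and overlaps Yod1 on the opposite strand, and Pfkfb1 overlaps Apex2, so the levels of both are uncertain.

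Aldolase cleaves the bisphosphate made by phosphofructokinase, not the one made by PFKFB enzymes, into triose phosphates. Aldoc (chr11:78322968-78327781, plus strand), the form known from brain, had 31, 22.2 and 22.9 CPM in the siRSL24D1 libraries, against 97.6, 90.7 and 78.5 CPM in the siCtrl libraries. Its ratio of 0.285 was the lowest of the 35 genes (log2 fold change -1.81 ± 0.13 SE, edgeR adjusted p = 5.4e-05). The 4 neuron markers, listed because Aldoc and Eno2 are known from that cell type, summed to 22.5 to 24.9 CPM with siRSL24D1 and 21.6 to 26.0 CPM with siCtrl, mostly from Map2, with 1 of 4 falling. Aldoa, the main form here, had 1072, 1052 and 929.6 CPM in the siRSL24D1 libraries, against 2020.4, 1941 and 1719.6 CPM in the siCtrl libraries (log2 fold change -0.90 ± 0.076 SE, edgeR adjusted p = 1.0e-04), and Aldoc was only 1.33 ± 0.21% with siRSL24D1 and 2.48 ± 0.070% with siCtrl (SD, n = 3 each) of the summed TPM. Tpi1, which interconverts the triose phosphates, had 443, 413 and 367 CPM in the siRSL24D1 libraries, against 807, 817 and 711 CPM in the siCtrl libraries (log2 fold change -0.93 ± 0.079 SE, edgeR adjusted p = 1.0e-04). All siRSL24D1 libraries lay below all siCtrl libraries in these 3 genes. Aldoa shares 35% and Tpi1 18.2% of the transcript with other genes, and their exons overlap Fam57b and Spsb2 on the opposite strand.

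Gapdh, the dehydrogenase that makes NADH and a common reference gene for quantitative PCR, had the highest TPM of the 35 genes, at 3689 ± 174 TPM with siRSL24D1 and 4573 ± 163 TPM with siCtrl (SD, n = 3 each). It had 2719.5, 2746 and 2467 CPM in the siRSL24D1 libraries, against 3609, 3498 and 3189 CPM in the siCtrl libraries, and fell (log2 fold change -0.38 ± 0.064 SE, edgeR adjusted p = 0.00227). Next in the pathway, Pgk1 (chrX:106187100-106203699, plus strand), the kinase of the first ATP-yielding step, had 809, 730.2 and 672 CPM in the siRSL24D1 libraries, against 1662, 1611 and 1489 CPM in the siCtrl libraries. Its level with siRSL24D1 was 0.464 of that with siCtrl (log2 fold change -1.11 ± 0.073 SE, edgeR adjusted p = 4.1e-05), a ratio that was 0.770 for Gapdh. Both have many processed copies in the mouse genome: 84.1% of the Gapdh transcript and 68.3% of the Pgk1 transcript occur in other genes in runs of 31 bases. Gm10358, a Gapdh copy in the table, had 0.780 CPM with siRSL24D1 and 0.659 CPM with siCtrl on average, so few reads were assigned to it, while most of the other copies were not analysed here. Exons of Gapdh also overlap Iffo1 on the opposite strand.

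Phosphoglycerate mutase moves the phosphate within phosphoglycerate. Pgam1, the main form, had 443 to 469 CPM with siRSL24D1, against 591 to 624 CPM with siCtrl (log2 fold change -0.41 ± 0.042 SE, edgeR adjusted p = 2.1e-04). Pgam2, the muscle form, had 4.87, 3.88 and 4.42 CPM in the siRSL24D1 libraries, against 6.11, 6.79 and 6.15 CPM in the siCtrl libraries (log2 fold change -0.53 ± 0.11 SE, edgeR adjusted p = 0.00574). Bpgm, which makes the bisphosphoglycerate that loosens oxygen from haemoglobin in red cells, rose: it had 19.2, 22.3 and 20.6 CPM in the siRSL24D1 libraries, against 16.3, 17.3 and 16.8 CPM in the siCtrl libraries (log2 fold change 0.30 ± 0.069 SE, edgeR adjusted p = 0.00895). Its groups did not overlap, and its share of the step's TPM was 3.44 ± 0.21% with siRSL24D1 and 2.12 ± 0.10% with siCtrl (SD, n = 3 each). Of 3 erythroid markers none passed the low-count filter, and they summed to 0.511 to 0.770 CPM with siRSL24D1 and 0.242 to 0.584 CPM with siCtrl. The 5 skeletal muscle markers, listed because of Pgam2 and Eno3, summed to 11.9 to 13.9 CPM with siRSL24D1 and 17.6 to 20.5 CPM with siCtrl, nearly all from Actn3. Of these 5, 4 were tested, 2 fell and 1 rose, and Myh1 had no count in the siRSL24D1 libraries and at most 0.06 CPM in the siCtrl libraries. Their part in the Pgam2 and Eno3 results was not tested.

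Enolase makes phosphoenolpyruvate. Eno1, the main form among the listed genes, had 919, 909.5 and 819.6 CPM in the siRSL24D1 libraries, against 1355, 1353 and 1203 CPM in the siCtrl libraries (log2 fold change -0.56 ± 0.065 SE, edgeR adjusted p = 3.8e-04). Its near-identical copy Eno1b, also in the table, had 1000.3 ± 27.8 CPM with siRSL24D1 and 1428 ± 64.1 CPM with siCtrl (SD, n = 3 each). Eno1b thus lay above Eno1 in both groups, but it is not in the step sum, the TPM order or the isozyme ratios given below. It shares 75.6% of the Eno1 transcript, so that the estimates of both rows depend on how shared reads were divided. Summed, both rows had 1883 ± 82.6 CPM with siRSL24D1 and 2732 ± 151 CPM with siCtrl, nearly the same relative change (log2 fold change -0.54 ± 0.056 SE, edgeR adjusted p = 2.4e-04), a sum added after the values were seen. Eno3, the muscle form, had 32.1 to 33.5 CPM with siRSL24D1, against 40.0 to 44.6 CPM with siCtrl, and fell (log2 fold change -0.38 ± 0.054 SE). Eno2, the neuronal form, had 7.04, 5.73 and 5.47 CPM in the siRSL24D1 libraries, against 7.71, 7.56 and 6.57 CPM in the siCtrl libraries. Its groups overlapped and it did not pass the test (log2 fold change -0.26 ± 0.12 SE, edgeR adjusted p = 0.115). Pkm, the pyruvate kinase gene of most tissues, had 2509, 2542 and 2292 CPM in the siRSL24D1 libraries, against 3663, 3612 and 3191 CPM in the siCtrl libraries (log2 fold change -0.51 ± 0.067 SE, edgeR adjusted p = 6.7e-04). All siRSL24D1 libraries lay below all siCtrl libraries for Pkm. The table gives 1 value per gene, so the M1 and M2 splice forms of Pkm could not be separated, and 50.9% of its transcript is shared with other genes.

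Lactate dehydrogenase subunits both fell. Ldha, the subunit known to favour lactate formation, had 699, 634 and 607 CPM in the siRSL24D1 libraries, against 1033, 1034 and 1004 CPM in the siCtrl libraries (log2 fold change -0.66 ± 0.056 SE, edgeR adjusted p = 1.0e-04). Ldhb, the heart-type subunit, had 143 to 156 CPM with siRSL24D1, against 190.1 to 217 CPM with siCtrl, with a log2 fold change of -0.44 ± 0.060 SE. Ldha remained the larger part of the pair, at 75.9 ± 0.98% with siRSL24D1 and 78.6 ± 0.90% with siCtrl (SD, n = 3 each) of the summed TPM. Copies elsewhere in the genome share 35.1% of the Ldha and 41.4% of the Ldhb transcript.

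The carriers that take lactate across the membrane both fell, by unequal amounts. Slc16a3 (MCT4, known as an exporter of glycolytic cells; chr11:120948480-120960868, plus strand) had 168, 154 and 143 CPM in the siRSL24D1 libraries, against 354, 353 and 331 CPM in the siCtrl libraries. That is 0.448 of the siCtrl level (log2 fold change -1.16 ± 0.062 SE, edgeR adjusted p = 2.2e-05), with the groups far apart. Slc16a1 (MCT1, which carries lactate both ways) had 164 to 170.1 CPM with siRSL24D1, against 197 to 203 CPM with siCtrl, a log2 fold change of -0.25 ± 0.037 SE. Slc16a3 made up 48.6 ± 1.6% with siRSL24D1 and 63.9 ± 0.67% with siCtrl (SD, n = 3 each) of the summed TPM of the pair. With siCtrl it was the more abundant carrier in every library. With siRSL24D1 it was so in library 1 alone, where it made up 50.2%. Bsg and Emb, the chaperones that bring these carriers to the membrane, were singled out after their values were seen. Both fell, and both are counted in the list of other isozymes and transporters. Bsg had 263 ± 12.6 CPM with siRSL24D1 and 362 ± 29.9 CPM with siCtrl (SD, n = 3 each), with an edgeR adjusted p of 0.00103. Emb had 99.9 ± 5.3 CPM with siRSL24D1 and 119 ± 1.1 CPM with siCtrl (SD, n = 3 each), with an edgeR adjusted p of 0.00348.

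Pyruvate dehydrogenase kinases phosphorylate and switch off the dehydrogenase in the mitochondrial matrix, and all 4 fell, by unequal amounts. Pdk1, the hypoxia-inducible form and the most abundant here, had 153, 128 and 129.7 CPM in the siRSL24D1 libraries, against 233, 239.6 and 228 CPM in the siCtrl libraries (log2 fold change -0.77 ± 0.069 SE, edgeR adjusted p = 1.3e-04). Pdk3 had 32.5 to 33.2 CPM with siRSL24D1, against 35.5 to 36.8 CPM with siCtrl, a log2 fold change of -0.13 ± 0.044 SE with an edgeR adjusted p of 0.0381. Besides a threshold of 0.01, that call was lost in 11 alternative settings, among them DESeq2 (adjusted p = 0.113) and every leave-one-out fit but the one without siCtrl library 3. Pdk4 was low, at 3.59 to 4.59 CPM with siRSL24D1, against 6.01 to 7.19 CPM with siCtrl (log2 fold change -0.60 ± 0.13 SE). So was Pdk2, at 1.80 to 2.39 CPM with siRSL24D1, against 2.72 to 3.63 CPM with siCtrl (log2 fold change -0.56 ± 0.17 SE). The Pdk2 call was lost without siRSL24D1 library 2 (edgeR adjusted p = 0.0760), siCtrl library 2 (0.0783) or siCtrl library 3 (0.0622). Pdk1 made up 59.7 ± 2.4% with siRSL24D1 and 68.9 ± 0.25% with siCtrl (SD, n = 3 each) of the step's TPM and Pdk3 35.3 ± 2.5% with siRSL24D1 and 26.1 ± 0.24% with siCtrl (SD, n = 3 each).

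The subunits of the pyruvate dehydrogenase complex itself changed little and not in 1 direction. Pdha1, the catalytic alpha subunit and the target of the kinases, had 226, 223 and 228 CPM in the siRSL24D1 libraries, against 257, 264 and 254 CPM in the siCtrl libraries (log2 fold change -0.20 ± 0.037 SE, edgeR adjusted p = 0.00374). Pdhb, its partner, had 111, 124 and 119 CPM in the siRSL24D1 libraries, against 123, 120.3 and 117 CPM in the siCtrl libraries. Its groups overlapped and it did not pass the test (log2 fold change -0.03 ± 0.051 SE, edgeR adjusted p = 0.725). Pdhx, which anchors another enzyme of the complex, had 44.5, 45.7 and 45.6 CPM in the siRSL24D1 libraries, against 40.5, 41.9 and 38.0 CPM in the siCtrl libraries, and rose (log2 fold change 0.17 ± 0.049 SE, edgeR adjusted p = 0.0231). Besides a threshold of 0.01, the Pdhx call was lost in 8 alternative settings, among them DESeq2 (adjusted p = 0.0724) and the fits without siCtrl library 1, siCtrl library 3, siRSL24D1 library 2 or siRSL24D1 library 3 (edgeR adjusted p from 0.0569 to 0.0758). Pdhb shares 41.9% of its transcript with a copy elsewhere, and Pdha1 overlaps Map3k15 on the opposite strand.

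Levels were summed on the TPM scale over the listed genes of each step, which for pyruvate dehydrogenase are different subunits of 1 complex. The ratio of the group means (siRSL24D1 over siCtrl) was lowest at phosphoglycerate kinase, at 0.487. It was 0.549 at triosephosphate isomerase, 0.557 at aldolase, 0.568 at glucose uptake, 0.576 at phosphofructokinase and 0.617 at lactate transport. Lactate dehydrogenase and the isomerase Gpi1 had 0.685 and 0.689, and hexokinase, PFKFB, enolase, the dehydrogenase kinases and pyruvate kinase lay between 0.708 and 0.735. The mutase step had 0.794 and Gapdh 0.807, and pyruvate dehydrogenase was close to 1, at 0.986. Glucose uptake thus had 868 ± 38.6 TPM with siRSL24D1 and 1528 ± 21.6 TPM with siCtrl (SD, n = 3 each), and pyruvate dehydrogenase had 347 ± 9.2 TPM with siRSL24D1 and 352 ± 3.9 TPM with siCtrl (SD, n = 3 each). These ratios are a description of the group means and carry no test of their own. TPM has its own total and no TMM factor, so they are not the ratios of the edgeR fit. In that fit Pgk1 had 0.464 and Gapdh 0.770. The order of siCtrl levels in TPM began with Gapdh (4573), Pkm (2713), Aldoa (2370.5), Pgk1 (1646), Eno1 (1217), Slc2a3 (1179) and Ldha (1098). It ended with Pfkfb2 (5.25), Eno2 (4.93), Pdk4 (3.48), Pfkfb4 (2.75) and Pdk2 (2.73). Spearman's rho between the siCtrl TPM and the log2 fold change over the 35 genes was -0.32, given as a description since both come from the same libraries.

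Genes of 1 step were then compared within each library, as the log2 ratio of their CPM with 1 added. Most are isozymes or carriers, while Pdha1, Pdhb and Pdhx are different subunits of 1 complex. The 19 pairs set genes of the same step against each other. With 1 added to the CPM, the groups did not overlap in 17 of the 19 pairs. In the CPM without the added 1, the groups overlap for Pdk2 and for Pdk4 to Pdk1 too. The share of separated pairs was not computed for other gene pairs, so the count cannot be read as a result particular to these pairs. Of all single genes tested, 26.2% were separated downward and 26.8% upward, which is no background for a ratio of genes. An exact two-sided permutation test of 3 against 3 libraries cannot give a p below 0.1. Each of the 17 pairs had an exact permutation p = 0.1 (0.112 adjusted over the 19 pairs), and none could pass the threshold. The Slc16a3 to Slc16a1 log2 ratio was -0.02, -0.11 and -0.20 in the siRSL24D1 libraries, against 0.83, 0.79 and 0.75 in the siCtrl libraries, a difference of -0.90. That of Aldoc to Aldoa differed by -0.88 and that of Slc2a3 to Slc2a1 by -0.49, lower in all 3 siRSL24D1 libraries in both cases. The differences with the opposite sign were those of Pfkfb4 (1.21), Pfkfb2 (1.06) and Pfkfb1 (0.37) to Pfkfb3, of Bpgm to Pgam1 (0.70), and of Pdk3 to Pdk1 (0.64).

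Smaller positive differences were seen for Pdk2 (0.36) and Pdk4 (0.26) to Pdk1, Hk2 to Hk1 (0.26), Ldhb to Ldha (0.22), Eno2 (0.33) and Eno3 (0.20) to Eno1, and Pdhx (0.37) and Pdhb (0.17) to Pdha1. Pfkl to Pfkp differed by -0.17. The groups overlapped for Pfkm to Pfkp, with a difference of 0.26 and an exact permutation p of 0.3 (0.317 adjusted), and for Pgam2 to Pgam1, with -0.04 and an exact permutation p of 0.9. For low genes such as Pfkfb4, Pgam2, Pdk2 and Pdk4 the added 1 shrinks the change of the low gene itself. Where both genes fell, as for Pgam2 to Pgam1 and for Pdk2 and Pdk4 to Pdk1, this raises the difference. For Pfkfb4, which rose, it lowers the difference.

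**Figure D3:**
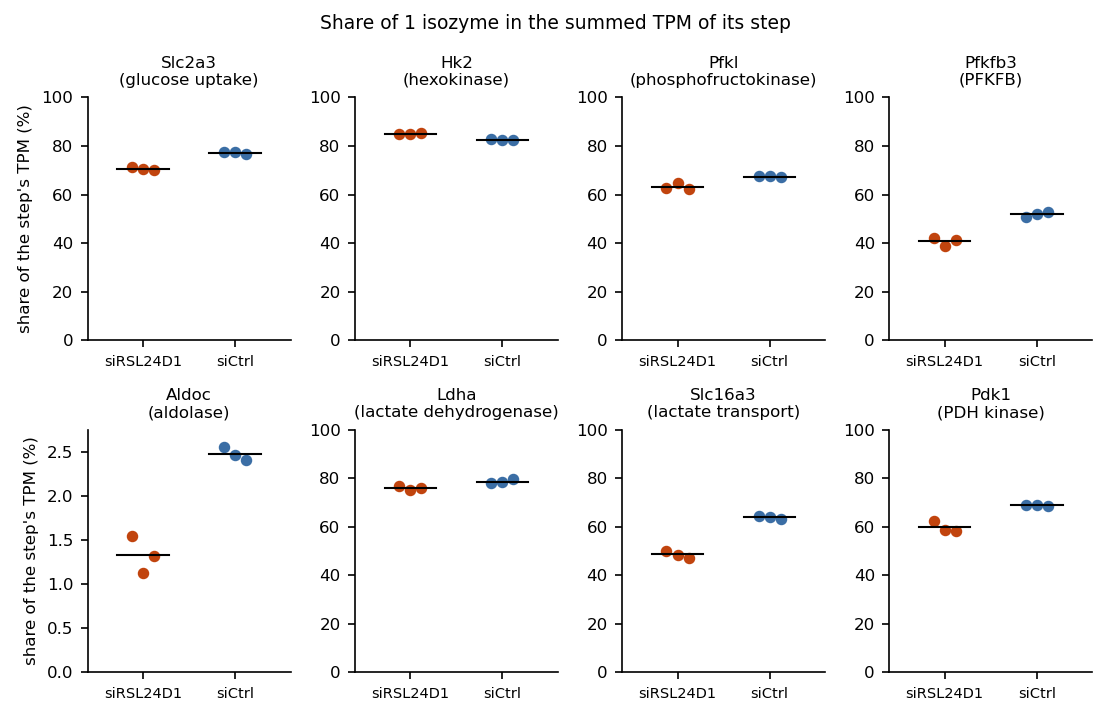
Share of 1 isozyme in the summed TPM of its step, in percent, for 8 steps, with siRSL24D1 (red) left of siCtrl (blue), 1 point per library (n = 3 each) and a line at the mean. The axis of the Aldoc panel is shorter than the others; Slc16a3 stands at 48.6% with siRSL24D1 and 63.9% with siCtrl, and Pfkfb3 at 40.7% with siRSL24D1 and 51.9% with siCtrl.

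**Figure D4:**
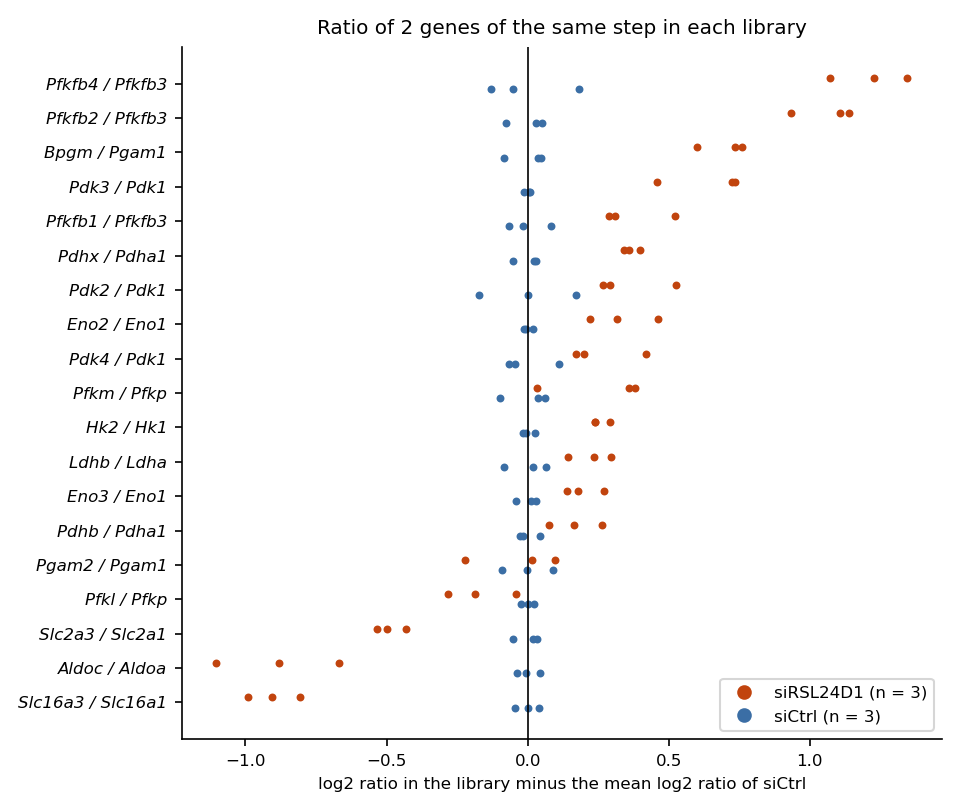
log2 ratio of the CPM (with 1 added) of each of 19 gene pairs in each library, minus the mean log2 ratio of the siCtrl libraries, with siRSL24D1 in red above siCtrl in blue (n = 3 each). Slc16a3 to Slc16a1 lies farthest left, at a mean difference of -0.90, Pfkfb4 to Pfkfb3 farthest right, at 1.21, and the colours overlap for Pfkm to Pfkp and Pgam2 to Pgam1.

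Within groups, library 3 tended to be low. It was the lowest of the siRSL24D1 libraries for 20 of the 35 genes (57.1%), against 32.8% of all genes tested, and the lowest of the siCtrl libraries for 25 of the 35 (71.4%), against 40.5% of all genes tested. Aldoa shows it, with 929.6 CPM in siRSL24D1 library 3 and 1719.6 CPM in siCtrl library 3. In the 29 genes that fell, no library crossed into the range of the other group.

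Genes around the pathway were counted from lists made by function. Of 75 such genes tested, 30 fell and 17 rose at an edgeR adjusted p under 0.05, with a median log2 fold change of -0.12. These are 40% and 22.7% of the 75, against 20% and 21.2% of all genes tested, so the share that rose is near that of all genes. The lists are short, and counts such as 2 of 10 are no more than the share over all genes gives. Of the other isozymes and transporters, 11 of 17 tested fell, Bsg and Emb among them, and 2 rose, with a median of -0.36. The largest fall there was that of Slc2a12 (log2 fold change -1.16, 1.70 CPM with siRSL24D1 and 3.78 CPM with siCtrl), a glucose transporter, and the largest rise that of Slc5a1 (log2 fold change 2.24, 2.39 CPM with siRSL24D1 and 0.504 CPM with siCtrl), the sodium-coupled glucose carrier of the gut. Both levels are low. The count of 11 dropped to 7 without siCtrl library 1, siCtrl library 2 or siRSL24D1 library 3 and in DESeq2. In gluconeogenesis 2 of 6 fell and 3 rose (median 0.20): Fbp2 (log2 fold change 1.73, 2.04 CPM with siRSL24D1 and 0.615 CPM with siCtrl), a fructose bisphosphatase, rose most, and Slc37a4 (log2 fold change -0.44, 7 CPM with siRSL24D1 and 9.52 CPM with siCtrl), the carrier of glucose phosphate into the endoplasmic reticulum, fell most.

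Genes of pyruvate entry and oxidation outside the 35 were mixed, with 2 of 10 falling and 2 rising (median -0.0044). Mpc1 (log2 fold change 0.43, 13 CPM with siRSL24D1 and 9.65 CPM with siCtrl), a subunit of the mitochondrial pyruvate carrier, rose and Pdp1 (log2 fold change -0.38, 14.7 CPM with siRSL24D1 and 19.2 CPM with siCtrl), a phosphatase that reactivates the dehydrogenase, fell. Besides a threshold of 0.01, the count of 2 that rose became 1 in 8 alternative settings, among them the fits without siCtrl library 1, siCtrl library 2, siRSL24D1 library 2 or siRSL24D1 library 3. The pentose phosphate list had 4 of 13 falling and 3 rising (median -0.05), with H6pd (log2 fold change -0.51, 12.5 CPM with siRSL24D1 and 17.9 CPM with siCtrl) falling most and Tktl1 (log2 fold change 1.53, 0.438 CPM with siRSL24D1 and 0.152 CPM with siCtrl) rising most. One of 5 genes of the serine branch fell and none rose (median -0.11): Phgdh (log2 fold change -0.54, 123 CPM with siRSL24D1 and 178 CPM with siCtrl), the first enzyme of serine synthesis from glucose. Without siCtrl library 3 the count was 2. In the hexosamine branch 3 of 5 fell and 1 rose (median -0.19), led by Gfpt2 (log2 fold change -0.35, 33.5 CPM with siRSL24D1 and 42.6 CPM with siCtrl), an entry enzyme of that branch, and by Gnpnat1 (log2 fold change 0.17, 51.7 CPM with siRSL24D1 and 46.0 CPM with siCtrl), which acetylates glucosamine phosphate. Besides a threshold of 0.01, the call of Gnpnat1 was lost in 11 alternative settings, among them every leave-one-out fit but the one without siCtrl library 2.

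Shuttles for glycerol phosphate and NADH had 5 of 10 falling and 2 rising (median -0.14), and the count of 5 dropped to 2 without siCtrl library 1, siCtrl library 2, siRSL24D1 library 1 or siRSL24D1 library 3. The aspartate-glutamate carriers stood on opposite sides there, with Slc25a13 (log2 fold change -0.26, 93.1 CPM with siRSL24D1 and 111 CPM with siCtrl) falling most and Slc25a12 (log2 fold change 0.30, 28.0 CPM with siRSL24D1 and 22.8 CPM with siCtrl) rising most. Enzymes for other sugars had 2 of 9 falling and 4 rising (median -0.0045), led by Galk1 (log2 fold change -0.71, 90.3 CPM with siRSL24D1 and 147 CPM with siCtrl), the galactokinase, and by Pmm2 (log2 fold change 0.71, 28.2 CPM with siRSL24D1 and 17.2 CPM with siCtrl), a phosphomannomutase. The median fall of the 35 genes was thus larger than that of any of these 8 lists, without a test of that difference.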

How the data were processed

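RNA from 6 libraries of CGR8 cells was sequenced; per the labels' protocols, it was rRNA-depleted and made into libraries with a stranded total RNA kit. The deposited table holds the authors' estimated counts per gene symbol, with no scaling between libraries. The tools were, per the submitters' processing notes, STAR 2.7.0f and Salmon 0.14.1, with build GRCm38; the annotation release, the strand setting and the summing to genes were not given in the sources used here. All values were rounded, since 21.59% to 22.65% per library were not whole (tolerance 1e-09).

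Groups came from the siRNA label. The series' design text calls the samples independent triplicates; where replicates are not separate cultures, p-values measure only the spread between these libraries. Within groups, libraries differed beyond sampling noise. filterByExpr (minimum count 10, minimum total 15) left 15084 genes. edgeR 4.0.16 (glmQLFit, glmQLFTest, two-sided, TMM, no covariate; limma 3.58.1, R 4.3.3) was run on all of them, with Benjamini-Hochberg adjustment and a threshold of 0.05; common biological variation was 7.48%. Errors are SD or, for log2 fold changes, SE. The fit was also run on data simulated from its own means and spread, which checks the code and not the results given here. TPM used 1 GENCODE M21 transcript per gene (lengths for 99.93% of tested genes). Isozyme ratios were log2 of CPM plus 1, with exact permutation tests. Shared sequence was counted as runs of 31 bases found in transcripts of other genes. Promoters are from RefSeq.

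The 35 genes, the lists and the tests were chosen with earlier results of these data known. Full values are given for the most changed called gene of each step and for genes that rose or did not pass. From each list, the most changed called gene in each direction is named. Alternatives were other scalings, filters and thresholds, DESeq2 1.42.0, a replicate block, GC and length corrections, other pseudocounts and leaving out each library; for Eno1, a sum with Eno1b was added after the data were seen. Protein sequences were not used here.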

Additional observations from a re-analysis of the deposited data

How the results depend on the processing

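Leaving aside a threshold of 0.01, 28 of the 32 called genes (27 that fell, and Bpgm) kept direction and call in all alternatives tried, of which there were 21 with that threshold. At 0.01, Pfkfb4, Pdk2, Pdk3 and Pdhx lost theirs. The number of the 35 genes that fell ran from 27 to 29. The number that rose was 1 at an adjusted p under 0.01, where 1867 genes of all tested fell and 1886 rose, and ran from 1 to 3 when each library was left out in turn. Over all genes tested, same-numbered libraries of the groups had deviation correlations of -0.22, 0.14 and 0.17, so the numbers were not taken as pairs. These correlations were not computed for the 35 genes alone, in which library 3 tended to be low in both groups. With a replicate block, 28 of the 35 genes fell and 3 rose, and 3104 genes of all tested fell and 3327 rose. The call lost was Pdk3 (edgeR adjusted p = 0.0563). The block lowered the edgeR adjusted p of some genes, such as Aldoa (from 1.0e-04 to 2.5e-05). For others it was raised, as for Slc2a1 (from 6.3e-05 to 1.4e-04). The difference of the Pgam2 to Pgam1 log2 ratio turned to 0.025 with a pseudocount of 2 and ran from -0.10 to 0.055 over the leave-one-out settings. Pdhb, not past the test, turned to a log2 fold change of 0.0076 with a length correction, 0.0066 with a length correction and replicate block, and ran from -0.065 to 0.020 when each library was left out. Eno2 passed with the length correction and replicate block (edgeR adjusted p = 0.0479) and without siRSL24D1 library 1 (0.0377), and Pfkfb2 without siRSL24D1 library 2 (0.0370). The cause of these changes was not tested. Genes under 10 CPM (Pfkfb4, Pgam2, Eno2, Pdk2 and Pdk4) rest on the fewest reads.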
